A study of Homo sapiens with 12 samples.

Results

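The genes described here were 50 mitosis and G2/M genes, those that carry a cell from the end of DNA replication through chromosome segregation. They were taken by symbol from a fixed list, and all 50 were found once each among the 60504 genes listed in every library. RNA was sequenced in 12 libraries from T24, a long-established line of human bladder carcinoma cells. In the knockout comparison, 2 libraries labelled U11 knockout were set against 2 libraries of untreated T24 cells. In the overexpression comparison, 6 libraries labelled U11 overexpression, 2 from each of the lines labelled 79, 86 and 87, were set against 2 other libraries of untreated cells. U11 is a small nuclear RNA of the minor spliceosome, which removes the rare U12-type introns. The knockout was made by CRISPR/Cas9 with a pair of guide RNAs, the overexpression by stable transfection of a U11 plasmid, and the cells were selected as single clones, so a line would stand for 1 clone and not for several independent ones. The labels do not say what 79, 86 and 87 mean, and they were taken here as names of lines. Nothing in the labels says that the libraries of a group came from separate cultures, so P-values measure only the spread between these libraries, which may be technical.

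Levels are given in TPM, which scales fragments by transcript length and then to one total per library. The aligned bases behind a library ran from 9.07 to 15.33 gigabases. The 2 sets of libraries were of different kinds: the 10 most abundant genes held 45.5% to 49.6% of the TPM in the 4 libraries of the knockout comparison and 7.06% to 7.56% in the 8 libraries of the overexpression comparison. Histone genes summed to 27662 to 34279 TPM in the former and 103 to 180 TPM in the latter. Levels were therefore compared only within a comparison. These are bulk libraries, in which fewer cells in mitosis and less of an RNA in each such cell cannot be told apart. The T24 label was checked against markers of cell types. The epithelial keratins were abundant, with KRT7 at 1085 to 1308 TPM in the knockout comparison and 3503 to 6703 TPM in the overexpression comparison, and so was the mesenchymal filament gene VIM at 1259 to 2887 TPM over all libraries. The uroplakins UPK1A, UPK1B, UPK2 and UPK3A, which mark differentiated urothelium, were each at or below 0.437 TPM, whereas the urothelial transcription factor genes PPARG and GATA3 were at 18.9 to 54.5 TPM and 2.38 to 17.4 TPM over all libraries, and the epithelial cadherin CDH1 was at or below 0.155 TPM.

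The targeted RNA was read first, as the sum of the 2 entries named RNU11. The controls held 21.4 and 23.8 TPM and the knockout-labelled libraries 31.6 and 37.4 TPM, so it was higher and not lower under that label (ratio 1.53, exact permutation test, two-sided, p = 0.333, the smallest this design allows). Among the libraries labelled U11 overexpression it was at 61.9 and 53.6 TPM in line 87 and at 3.99 and 3.72 TPM in line 86. Line 79 held 0.183 and 0.412 TPM, beside 0.033 and 0.623 TPM in the controls. Lines 87 and 86 lay above both controls, and line 79 lay between them. In the knockout comparison 1 of the entries was listed at 0 in every library, and that entry held most of the level in lines 86 and 87. The 6 libraries labelled U11 overexpression as 1 group did not differ from the 2 controls by the exact permutation test (two-sided, p = 0.393, where the smallest possible was 0.0357). The condition is therefore written as a label throughout.

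Entry into mitosis is driven by CDK1 bound to cyclin B and opened by the CDC25 phosphatases, with the kinases PLK1 and Aurora A. Chromosomes are then compacted by condensin and topoisomerase II, caught at their kinetochores by microtubules through the NDC80 complex, and watched by the spindle assembly checkpoint until the anaphase-promoting complex with CDC20 starts their separation. Kinesins and the chromosomal passenger complex move the chromosomes and shape the spindle, and ANLN and ECT2 drive cytokinesis. Transcription of these genes is held down in resting cells by the DREAM complex and raised late in the cell cycle by MYBL2 and FOXM1, acting largely through a short promoter element called CHR (TTTGAA or TTTAAA) and through CCAAT boxes, where NF-Y binds.

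Promoters were found for 43 of the 50 genes in the RefSeq promoter table (GRCh38.p14), the first listed start being used where a gene had several, and none for TTK, FOXM1, BIRC5, UBE2C, AURKA, BUB3 and TPX2. In the 100 bases before the start, TTTGAA or TTTAAA on either strand was present in 22 of the 43 promoters (51.2%) and in 8.33% of all 27305 promoters of the table. CCAAT on either strand was present in 26 (60.5%) and in 18.7%, and both in 15 (34.9%) and in 1.61%. In a window of 250 bases, 69.8% against 22.1% held the first motif and 58.1% against 7.85% held both. A match says only that these letters are present. The 100 bases before the start are printed for 11 genes on which the results below turn, 5′ to 3′ on the strand of the gene. The first 4 belong to genes that were lower under the knockout label, the next 4 to genes that were lower in line 79, and the last 3 to genes that were higher under the knockout label. Capitals mark CCAAT or its reverse complement ATTGG, and TTTGAA, its reverse complement TTCAAA or TTTAAA.
PLK1, chr16:23678789-23678888, plus strand: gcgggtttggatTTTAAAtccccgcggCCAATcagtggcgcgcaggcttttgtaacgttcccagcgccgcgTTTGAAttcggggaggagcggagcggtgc
CCNB1, chr5:69167050-69167149, plus strand: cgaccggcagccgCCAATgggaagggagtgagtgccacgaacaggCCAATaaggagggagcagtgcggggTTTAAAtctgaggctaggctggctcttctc
CDC20, chr1:43358881-43358980, plus strand: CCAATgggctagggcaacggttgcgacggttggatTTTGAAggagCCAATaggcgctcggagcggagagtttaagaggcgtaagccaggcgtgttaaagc
KIF20A, chr5:138179012-138179111, plus strand: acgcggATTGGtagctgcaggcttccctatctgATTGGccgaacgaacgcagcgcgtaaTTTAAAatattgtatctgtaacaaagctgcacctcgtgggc
CCNB2, chr15:59105046-59105145, plus strand: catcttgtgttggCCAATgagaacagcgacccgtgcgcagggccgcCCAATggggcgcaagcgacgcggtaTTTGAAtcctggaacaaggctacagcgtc
KIF11, chr10:92593030-92593129, plus strand: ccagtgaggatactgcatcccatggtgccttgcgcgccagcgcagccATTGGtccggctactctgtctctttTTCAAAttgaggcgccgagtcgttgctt
BUB1, chr2:110678064-110678163, minus strand: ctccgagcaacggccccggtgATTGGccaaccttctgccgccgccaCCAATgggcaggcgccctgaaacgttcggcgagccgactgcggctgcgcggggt
KIF20B, chr10:89701490-89701589, plus strand: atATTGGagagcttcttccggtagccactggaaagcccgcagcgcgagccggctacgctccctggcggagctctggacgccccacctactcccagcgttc
NUF2, chr1:163321854-163321953, plus strand: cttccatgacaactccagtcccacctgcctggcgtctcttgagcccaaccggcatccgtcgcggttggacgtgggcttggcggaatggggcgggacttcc
CENPF, chr1:214603095-214603194, plus strand: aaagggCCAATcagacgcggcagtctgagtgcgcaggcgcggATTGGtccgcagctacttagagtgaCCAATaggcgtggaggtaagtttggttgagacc
KIF14, chr1:200620752-200620851, minus strand: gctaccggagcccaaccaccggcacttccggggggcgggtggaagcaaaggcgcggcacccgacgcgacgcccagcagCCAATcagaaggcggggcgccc
PLK1, CCNB1, CDC20, KIF20A, CCNB2 and KIF11 held both motifs in this window. BUB1, KIF20B, CENPF and KIF14 held CCAAT on one or both strands and no CHR motif, and NUF2 held neither. Other genes named below, whose bases are not printed, broke this grouping. Of those lower under the knockout label or in line 79, CCNF held a CHR motif only, KIF23 held both motifs, and CDK1 and AURKB held neither. ANLN, higher under the knockout label, held CHR motifs and no CCAAT. KIF4A, PRC1 and KIF23 held both motifs and were higher in both libraries with the knockout label than in either control. KIF23 was at 107 and 96.2 TPM under the label against 72.4 and 80.9 TPM. Whether the motifs went with the direction was not tested.

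Only 1 of the 50 genes, SPC24 of the NDC80 complex, had an intron whose first bases were ATATCCTT or GTATCCTT, as U12-type introns have (2.0%, beside 3.65% of 12290 genes tested in the knockout comparison that have introns). With ATATCCTT alone the shares were 2.0% and 1.11%, so their order depended on the motif chosen. Only these first bases were read. Its 3 such introns in the annotation lie on the minus strand of hg38 at chr19:11146280-11147817, chr19:11147290-11147817 and chr19:11148118-11149093, the first pair sharing 1 splice donor. The level of SPC24 was 34.4 and 36.5 TPM without the knockout label and 32.1 and 32.3 TPM with it. The groups did not overlap, but the difference was small and did not pass the test (log2 fold change -0.14 ± 0.09 SE, limma, adjusted P = 0.386).

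Every one of the 50 genes was expressed in every library. Their summed level was 3206 and 3708 TPM in the controls of the knockout comparison, 3925 and 3678 TPM under the knockout label, and 7040 to 8325 TPM in the overexpression comparison. The most abundant in the knockout comparison were UBE2C, the ubiquitin-conjugating enzyme of the anaphase-promoting complex (mean 250.4 TPM), TOP2A, topoisomerase II (204 TPM) and CDC20 (188.0 TPM), and the least abundant KIF14 (24.9 TPM), SPC25 of the NDC80 complex (21.2 TPM) and the phosphatase gene CDC25C (12.6 TPM). In the overexpression comparison CDC20 (640.4 TPM), UBE2C (410 TPM) and the spindle assembly factor gene TPX2 (380 TPM) were highest, and SPC24 (37.4 TPM), CDC25C (38.9 TPM) and the checkpoint kinase gene TTK (43.5 TPM) were lowest.

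**Figure D1:**
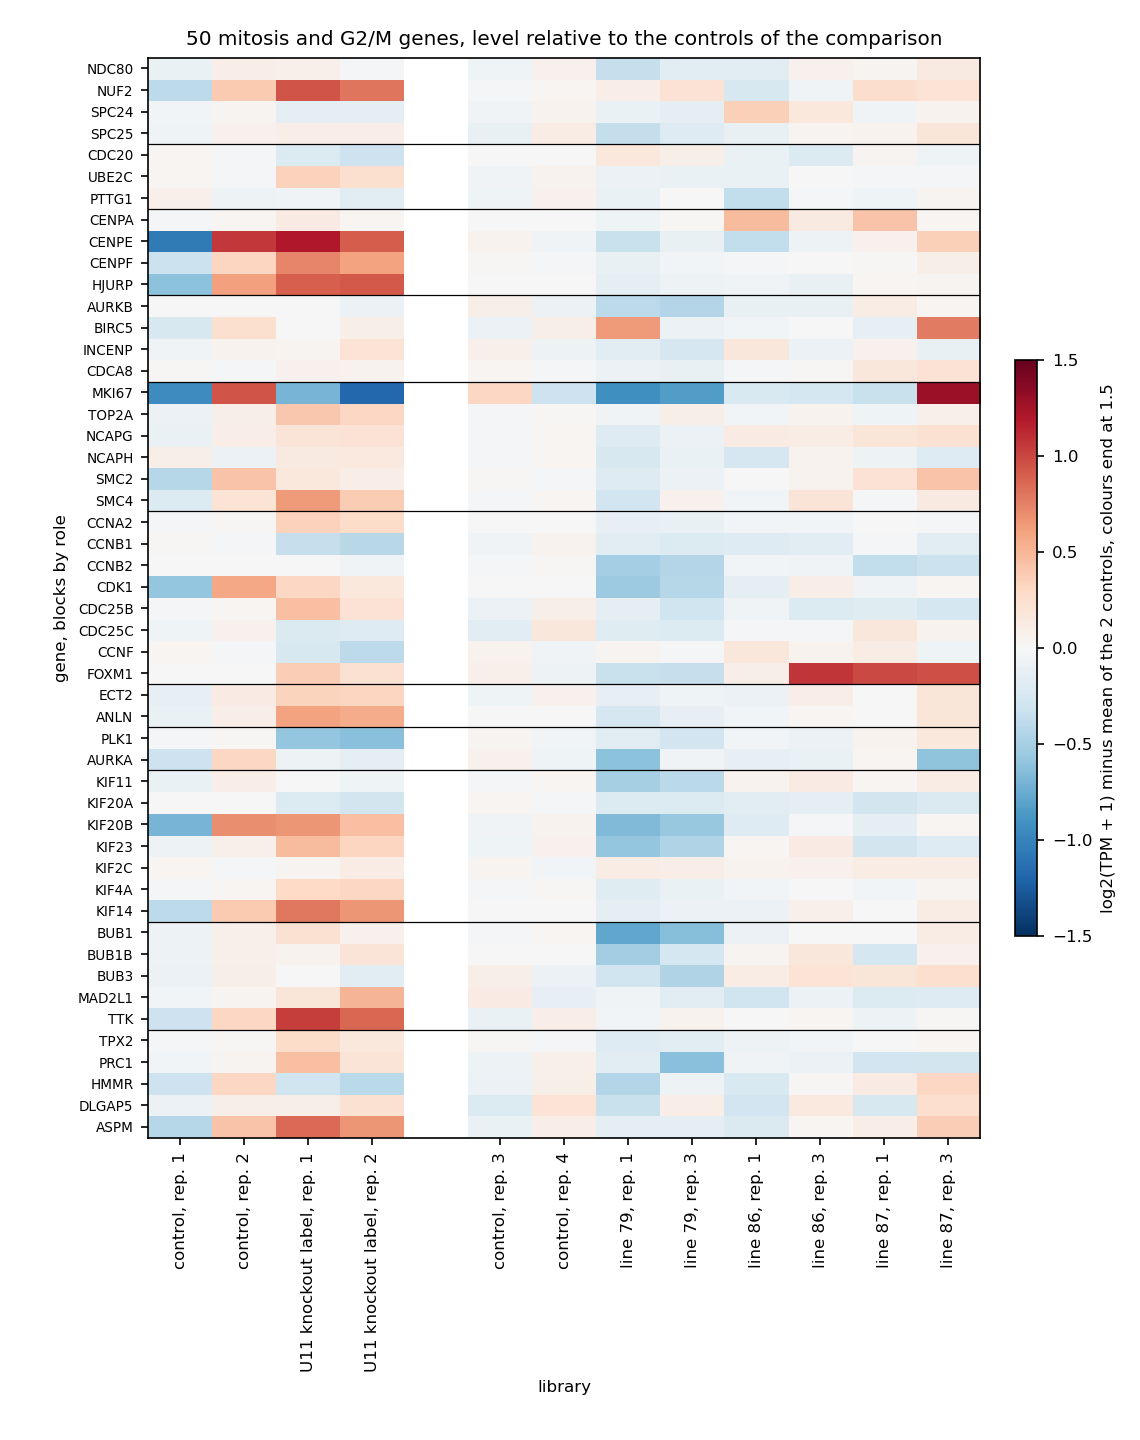
Level of each of the 50 genes (rows, in blocks by role) in each of the 12 libraries (columns), as log2(TPM + 1) minus the mean of the 2 controls of its own comparison; red is higher, blue is lower, and the colour scale ends at 1.5. In the left block the 2 controls differ from each other most in CENPE, MKI67, KIF20B, HJURP and CDK1. In the right block the 2 libraries of line 79 are mostly blue.

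The first comparison asked which of these genes differed under the knockout label. Genes were tested with limma on log2(TPM + 1) over all 14356 genes with at least 1 TPM in 2 libraries, and a gene was called where it differed by 1.5-fold or more with an unadjusted P under 0.05, the thresholds of the study. Called higher were 4 of the 50 genes (8.61% of all genes tested were called higher), and called lower was 1 (3.15% of all). The shares of the 50 genes, 8% and 2%, were thus no higher than those of all genes. The median log2 fold change of the 50 was 0.14, with 35 genes higher (63.7% of all genes) and 15 lower (36.3% of all), beside 0.11 over all genes. After median ratio scaling, which removes the shift of the whole table, the median was 0.02, with 28 higher (50.3% of all) and 22 lower (49.7% of all), beside 0.00 over all genes, and 2 genes were called higher (5.50% of all) and 1 lower (4.93% of all).

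The clearest difference was in PLK1, the Polo-like kinase that triggers mitotic entry and spindle assembly (hg38, chr16:23677656-23690367, plus strand). Its level was 62.3 and 63.6 TPM in the controls and 41.8 and 40.4 TPM under the knockout label, and the 2 groups were far apart relative to the spread within each. It fell by 0.60 on the log2 scale (SE 0.09, limma, adjusted P = 0.0296 over all genes), and by 0.73 after median ratio scaling (adjusted P = 0.0233). With an adjusted P under 0.05 in place of the unadjusted one, PLK1 was the only 1 of the 50 called lower (2.08% of all genes) and none was called higher (4.78% of all). PLK1 was called in every fit that left out 1 library but 1. That was the fit without the second library labelled U11 knockout, where the fall was 0.58.

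Another 4 genes were lower at an unadjusted P under 0.05 without reaching 1.5-fold, CCNB1, CDC20, KIF20A and CCNF. CCNB1, which encodes cyclin B1, was at 185 and 180 TPM in the controls and 143 and 136 TPM under the knockout label (log2 fold change -0.38 ± 0.08 SE, unadjusted P = 0.0049, adjusted P = 0.0553). CDC20, the activator of the anaphase-promoting complex, was at 209 and 200.2 TPM in the controls and 178 and 165 TPM under the label (-0.26 ± 0.08). KIF20A, a kinesin of the central spindle, was at 61.9 and 62.7 TPM against 53.9 and 51.3 TPM (-0.24 ± 0.09). CCNF, cyclin F, a substrate receptor for ubiquitination, was at 45.9 and 43.8 TPM against 37.7 and 34.0 TPM (-0.32 ± 0.10). The groups did not overlap in 8 of the 50 genes that were lower (20.4% of all genes), these 4 among them. In each of the 4 the unadjusted P was under 0.05 and the adjusted P was between 0.0553 and 0.151. Of the 50 genes, 5 were lower at an unadjusted P under 0.05 with no demand on the fold (9.53% of all genes). Of the 8 genes listed as cyclins, CDK1 and its activators, with FOXM1, 4 were higher and 4 lower, among the former the cyclin A gene CCNA2 (0.31 ± 0.08, unadjusted P = 0.0147 by limma) and the phosphatase gene CDC25B (0.33 ± 0.11, unadjusted P = 0.0336 by limma).

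**Figure D2:**
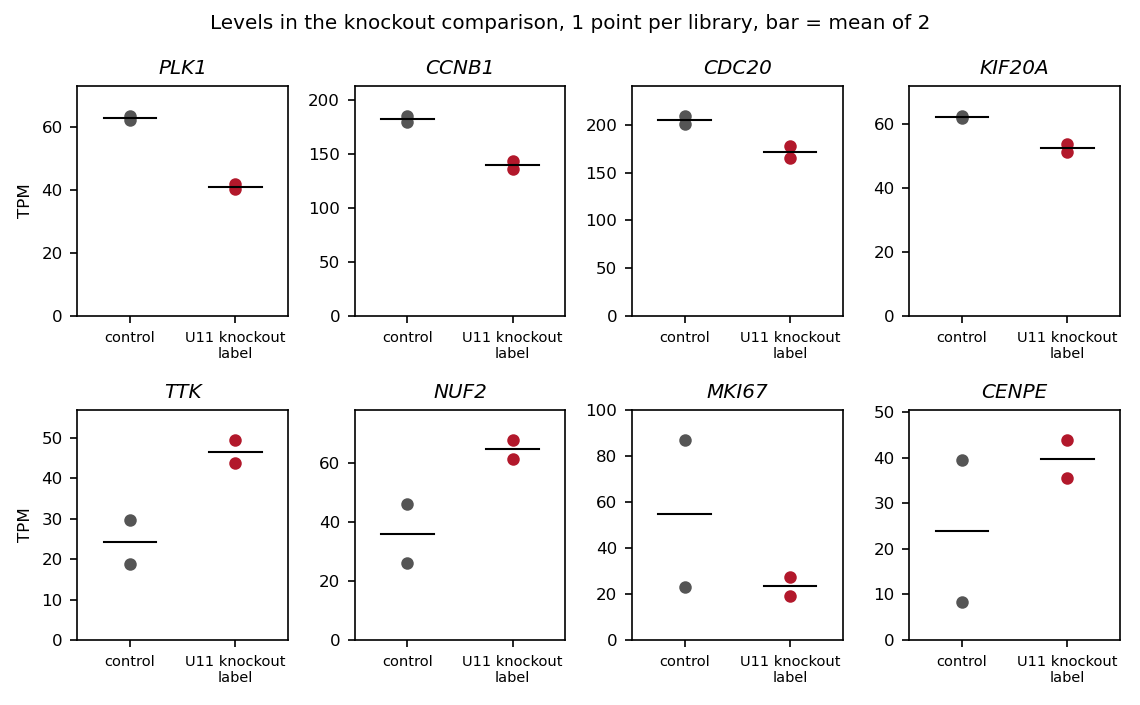
TPM (vertical axes, from 0) of 8 genes in the 2 control libraries and the 2 libraries labelled U11 knockout; each point is 1 library and each bar the mean of 2. PLK1, CCNB1, CDC20 and KIF20A have tight and separate groups, whereas in MKI67 and CENPE the 2 controls lie far apart, at 22.9 and 87.1 TPM and at 8.32 and 39.6 TPM.

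The 4 genes called higher (8%, beside 8.61% of all genes) encode proteins of the kinetochore, the checkpoint and cytokinesis. TTK, the kinase that starts checkpoint signalling, was at 18.9 and 29.6 TPM in the controls and 49.4 and 43.7 TPM under the knockout label (log2 fold change 0.95 ± 0.23 SE, adjusted P = 0.0742). NUF2, a subunit of the NDC80 complex, was at 26.2 and 46.0 TPM against 67.8 and 61.5 TPM (0.88 ± 0.27, adjusted P = 0.116). CENPF, a kinetochore protein, was at 44.3 and 69.4 TPM against 93.2 and 84.8 TPM (0.67 ± 0.22, adjusted P = 0.133). KIF14, a kinesin of cytokinesis, was at 13.6 and 24.3 TPM against 32.3 and 29.3 TPM (0.72 ± 0.27, adjusted P = 0.162). The groups did not overlap in 26 genes that were higher (39.9% of all genes), these 4 among them, but the first control was well below the second and none passed at the adjusted P. ANLN, the anillin scaffold of the contractile ring, had an adjusted P of 0.0420 with 94.0 and 108 TPM against 153 and 149 TPM, a log2 fold change of 0.58 just short of 1.5-fold, and 0.45 with an adjusted P of 0.0555 after median ratio scaling. NUF2 and TTK stayed called after that scaling, whereas CENPF (0.55) and KIF14 (0.60, unadjusted P = 0.0575 by limma) did not. KIF14 lost its call in 10 of 14 alternatives, CENPF in 7, NUF2 in 5 and TTK in 2. At an unadjusted P under 0.05 with no demand on the fold, 16 of the 50 were higher (20.6% of all genes), among them TOP2A (0.36 ± 0.10, with 167 and 190 TPM against 237 and 221 TPM) and FOXM1 (0.30 ± 0.10, with 28.4 and 28.3 TPM against 36.8 and 33.3 TPM), and after median ratio scaling 6 were higher and 7 lower (15.7% of all genes in either direction). TOP2A and FOXM1 were not among those 6.

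The controls of this comparison differed from each other in several of these genes. Relative to the median of all genes, control replicate 1 was at least 1.5-fold below control replicate 2 in 9 of the 50 genes, NUF2, KIF14, SMC2, ASPM, CDK1, HJURP, KIF20B, MKI67 and CENPE, and above it by that much in none (5.75% of all genes tested differed by that much in either direction). Between the 2 libraries labelled U11 knockout, none of the 50 differed by 1.5-fold (4.56% of all genes). CDK1, the kinase of cyclin B, was at 45.6 and 103 TPM in the controls and 85.7 and 76.5 TPM under the label, so its groups overlapped (log2 fold change 0.24 ± 0.38 SE, adjusted P = 0.717). CENPE, the kinetochore kinesin, was at 8.32 and 39.6 TPM against 43.9 and 35.5 TPM (1.06 ± 0.69), and HJURP, the chaperone of the centromeric histone CENPA, at 16.7 and 40.5 TPM against 49.5 and 50.5 TPM (0.91 ± 0.40). MKI67, the gene of the proliferation marker Ki-67, went the other way, with 22.9 and 87.1 TPM in the controls and 27.3 and 19.3 TPM under the label (-0.94 ± 0.63). None of these 4 passed the test. With the replicate number as a block HJURP was called higher (0.91, limma, unadjusted P = 0.0358, adjusted P = 0.199).

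Leaving out control replicate 1 left TTK called higher (log2 fold change 0.63) and PLK1 lower (-0.62), and added HMMR, a spindle hyaluronan receptor (-0.67), and MKI67 (-1.88) as lower, in a fit that called 7.68% of all genes higher and 3.72% lower. Leaving out control replicate 2 instead gave 11 genes called higher, among them CENPE (2.12), HJURP (1.53), NUF2 (1.27) and CDK1 (0.81), with MKI67 at 0.00, and that fit called 14.7% of all genes higher. Without the first library labelled U11 knockout PLK1 alone of the 50 was called. Without the second, ANLN (0.60) and TTK (1.03) were called higher and none lower. These last 2 fits called 5.79% and 10.1% of all genes higher and 4.26% and 3.12% lower. In each of these fits the single library left in a group was assumed to vary like the others. The direction of MKI67, CDK1 and CENPE thus rested on 1 library, and the difference between the controls went with several properties of the genes. Across the 50 genes, the difference between control 2 and control 1 fell with the GC content of the canonical transcript (Pearson r = -0.44, Spearman rho = -0.66, n = 50 genes, which share the same 2 libraries and are not independent). It rose with the log2 length of that transcript (r = 0.48, rho = 0.47) and fell with the mean level (r = -0.42, rho = -0.41), relations that were weaker over all genes (rho = 0.13 and -0.15). MKI67 and HJURP, with large differences, were at 48.3% and 48.7% GC. Of the genes called higher under the label, TTK was at 36.4% GC, NUF2 at 38.8%, CENPF at 40.8% and KIF14 at 38.3%. Of those lower, PLK1 was at 57.1%, CDC20 at 56.9% and CCNF at 57.3%, but CCNB1 at 41.9% and KIF20A at 48.2%. The 19 genes under 40% GC had a median difference, relative to all genes, of 0.33 on the log2 scale, and the 12 genes of 50% GC or more had -0.07. Over all 14146 genes with a transcript the rho with GC content was -0.44. Whether base composition, length or level had a part in the differences under the knockout label was not tested.

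**Figure D3:**
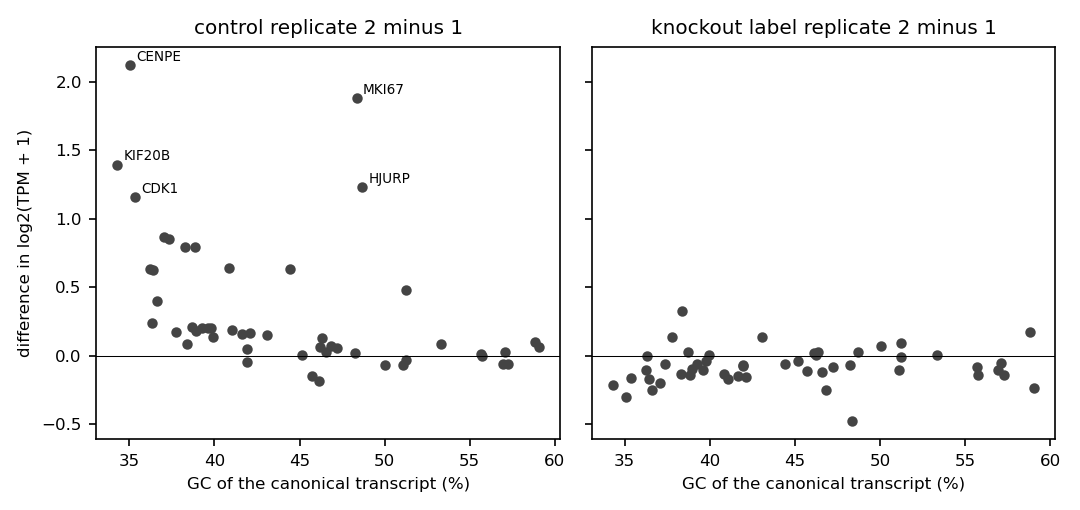
Difference in log2(TPM + 1) between the 2 libraries of a group (vertical axes) against the GC content of the canonical transcript in percent (horizontal axes), 1 point per gene, for the controls (left) and the libraries labelled U11 knockout (right). The low-GC genes CENPE, KIF20B and CDK1 and the genes MKI67 and HJURP lie highest on the left, and no gene reaches 1.5-fold on the right.

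By role, the chromosomal passenger complex varied least under the knockout label, with log2 fold changes of -0.04 to 0.12 for AURKB, BIRC5, INCENP and CDCA8. The 4 centromere and kinetochore assembly genes were all higher, from 0.08 for CENPA to 1.06 for CENPE, although CENPA was at -0.05 after median ratio scaling. All 4 genes of the chromosomal passenger complex were also below 0 after scaling. The rise of CENPE rested on the first control, and without that library CENPE was at -0.0042. Of the 7 mitotic kinesins 5 were higher and 2 lower, from -0.24 for KIF20A to 0.72 for KIF14, and after scaling 4 were higher and 3 lower. CENPA overlaps SLC35F6 on the same strand, so reads may have been split between them.

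Other genes of the cell cycle were read from fixed lists. The shares of all genes given above for the knockout comparison stand beside each count (8.61% called higher, 3.15% called lower, 36.3% lower, median 0.11). Of 25 further kinetochore and centromere genes, 2 were called lower, CENPM (26.0 against 40.9 TPM, log2 fold change -0.63) and CENPH (18.6 against 30.2 TPM, -0.66), and none higher. Of 18 genes of the anaphase-promoting complex and its regulators, FBXO5, the inhibitor EMI1, was called higher (64.8 against 34.5 TPM, 0.93). None of 22 further spindle and cytokinesis genes and none of 14 cohesin and condensin genes was called, although after median ratio scaling the chromosome-arm kinesin gene KIF22 was called lower (-0.61, limma, adjusted P = 0.0492). Of 12 G2/M regulators, LIN52, a subunit of DREAM, was called higher (11.7 against 4.59 TPM, 1.18, limma, adjusted P = 0.0160). Of 16 G1/S genes 15 were lower, with a median of -0.24, and 2 of them were called, GINS2 of the replicative helicase (20.0 against 32.4 TPM, -0.67) and the licensing factor CDT1 (15.0 against 23.6 TPM, -0.63). Of 7 CDK inhibitor genes, CDKN2D (0.74) and CDKN2B (0.63) were called higher and CDKN1C (-0.71) lower, and after median ratio scaling CDKN2B was at 0.54 and no longer called.

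**Figure D4:**
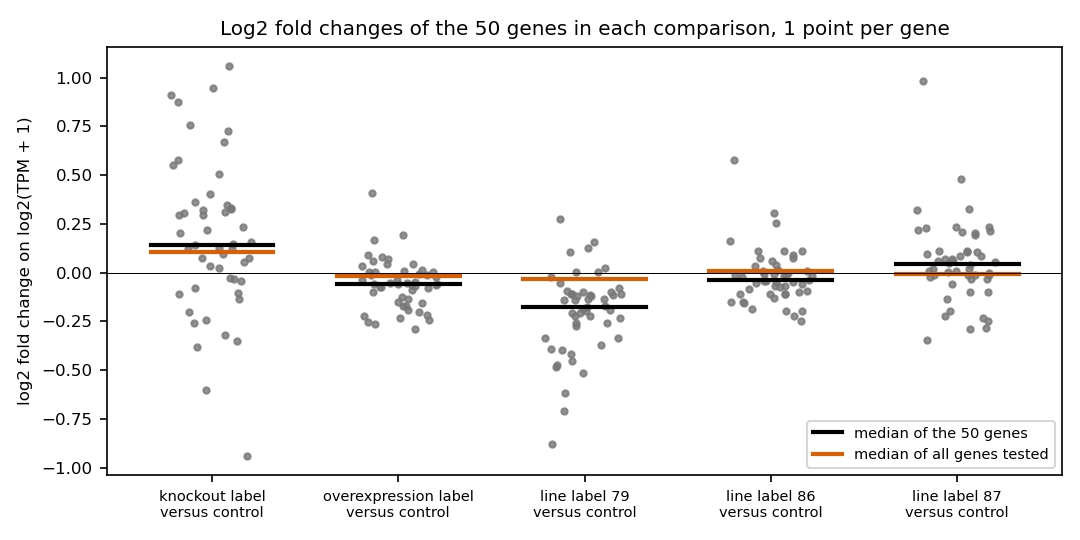
Log2 fold changes on log2(TPM + 1) of the 50 genes (vertical axis, 1 point per gene, spread sideways for clarity) in each of 5 comparisons; black bars are the medians of the 50 and orange bars the medians of all genes tested. The knockout comparison is the widest, from -0.94 to 1.06, and line 79 is the only one whose black bar, at -0.17, lies well below the orange bar, at -0.03.

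The second comparison set the 6 libraries labelled U11 overexpression against their 2 controls. None of the 50 genes was called in either direction (0.767% of 15768 genes were called higher and 1.16% lower), and at an unadjusted P under 0.05 with no demand on the fold 1 was lower (3.18% of all) and none higher (2.82% of all). That gene was KIF20A, at 214 and 206 TPM in the controls. The 6 libraries labelled U11 overexpression held 173 to 190 TPM of it, with a median of 182 TPM (log2 fold change -0.20 ± 0.07 SE, limma, unadjusted P = 0.0141, adjusted P = 0.618). All 6 libraries lay below both controls. Groups did not overlap in 2 genes that were lower, KIF20A and CCNB2 (5.24% of all genes), and in 1 that was higher, KIF2C (4.62% of all), the kinesin that takes microtubules apart at the centromere. The median of the 50 was -0.06, with 35 lower (54.1% of all genes) and 15 higher (45.9% of all), beside -0.02 over all genes. The largest differences were FOXM1 (0.41 ± 0.42), CCNB2 (-0.29 ± 0.14), KIF20B (-0.26 ± 0.19), PRC1 (-0.25 ± 0.14) and AURKA (-0.24 ± 0.19), with adjusted P-values of 0.864 or more. MKI67 (-0.21), TOP2A (0.01), CDK1 (-0.17), CCNB1 (-0.16) and PLK1 (-0.06) did not pass either. No gene of the further cell cycle lists was called.

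The 3 lines differed from each other, and line 79 stood lowest. The contrasts of the 3 lines share the same 2 controls. In line 79, 43 of the 50 genes were lower than in the controls and 7 higher (54.9% and 45.0% of all genes) and the median was -0.17, beside -0.03 over all genes. The groups did not overlap in 36 genes that were lower (30.7% of all genes) and 3 that were higher (22.1% of all). At an unadjusted P under 0.05, 16 were lower (15.8% of all genes) and none higher (8.21% of all). With the demand of 1.5-fold, 2 were called lower (5.52% of all genes) and none higher (2.43%). Within the 2 library codes given in the titles, each with 1 control and 1 library of the line, the medians were -0.17 and -0.15, with 45 and 42 of the 50 lower.

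The genes called lower in line 79 were BUB1 and KIF20B. BUB1, a checkpoint kinase at the kinetochore (hg38, chr2:110637698-110678114, minus strand), was at 130.0 and 135 TPM in the controls, 76.7 and 84.7 TPM in line 79, 124 and 132 TPM in line 86 and 132 and 144 TPM in line 87. Line 79 lay below all 6 other libraries, which overlapped each other. The log2 fold change of line 79 against the controls was -0.71 ± 0.08 SE (limma, adjusted P = 0.00425), and that of line 87 against line 79 was 0.77 ± 0.08 (adjusted P = 0.00275). KIF20B, a kinesin of cytokinesis, was at 52.9 and 56.7 TPM in the controls and 34.2 and 36.6 TPM in line 79, and at 47.8 to 55.9 TPM in the other lines (-0.62 ± 0.10 against the controls, adjusted P = 0.0129). After median ratio scaling it was at -0.58, short of 1.5-fold, and BUB1 alone was called lower (4.76% of all genes). Each of these 2 genes differed by nearly the same amount within both library codes, BUB1 by -0.75 and -0.66 and KIF20B by -0.62 and -0.62. BUB1 was called whichever library was left out, whereas KIF20B fell short of 1.5-fold without control replicate 4 (-0.57) or without replicate 1 of line 79 (-0.57).

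At an adjusted P under 0.05 with no demand on the fold, 7 genes were lower in line 79 (7.10% of all genes) and none higher (2.81% of all), BUB1, KIF20B and another 5. KIF11, the motor that pushes the spindle poles apart, was at 114 and 118 TPM in the controls and 81.7 and 87.5 TPM in line 79 (-0.45 ± 0.07). KIF23, the kinesin of centralspindlin, was at 133 and 146 TPM against 93.2 and 102 TPM (-0.51 ± 0.08), and CDK1 at 187 and 185 TPM against 128 and 138 TPM (-0.48 ± 0.09). CCNB2, cyclin B2, was at 178 and 182 TPM against 126 and 132 TPM (-0.47 ± 0.06), and AURKB, Aurora B, the kinase of the chromosomal passenger complex, at 185 and 163 TPM against 132 and 128 TPM (-0.42 ± 0.08). In each of the 5, the 2 libraries of line 79 lay below the controls. MKI67 had the largest difference in line 79, -0.88, but an SE of 0.49 (adjusted P = 0.350), with 35.3 and 37.4 TPM against 84.1 and 54.3 TPM in the controls. Genes that were not lower in line 79 included TOP2A, at 359 and 396 TPM against 366 and 376 TPM, and NUF2, at 127 and 137 TPM against 115 and 121 TPM. Of the 22 further spindle and cytokinesis genes, 19 were lower in line 79 and 4 were called lower (54.9% and 5.52% of all genes), KIF18A (-0.86), CKAP2L (-0.87), CEP55 (-0.63) and CKAP5 (-0.59), the last at -0.55 and not called after median ratio scaling. Of the 25 kinetochore genes CASC5, the KNL1 scaffold, was called lower (-0.74) and NSL1 higher (0.79), of the G2/M regulators PKMYT1, a kinase that inhibits CDK1, was called lower (-0.63), and of the G1/S genes the helicase subunit gene MCM7 was (-0.71).

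**Figure D5:**
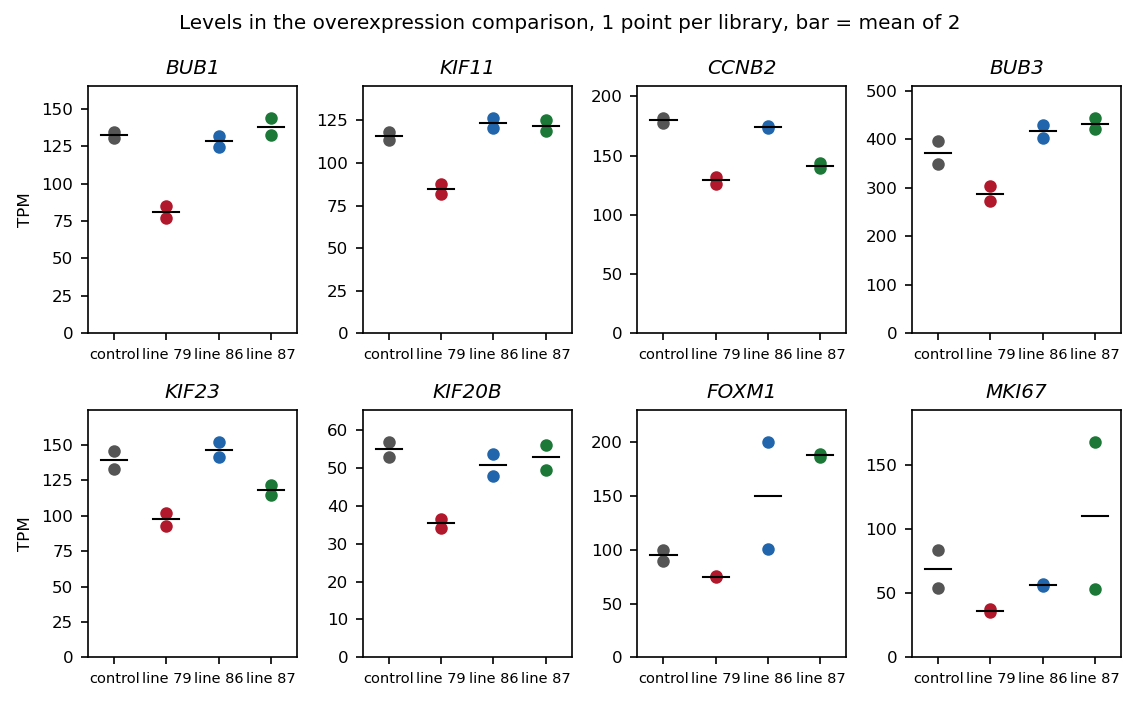
TPM (vertical axes, from 0) of 8 genes in the 2 controls and the 2 libraries of each line of the overexpression comparison; each point is 1 library and each bar the mean of 2. Line 79 is lowest in BUB1, KIF11, BUB3, KIF23 and KIF20B, CCNB2 is lower than the controls in lines 79 and 87, and in FOXM1 of line 86 and MKI67 of line 87 the 2 libraries of a line lie far apart.

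Line 86 was close to its controls. None of the 50 genes was called in it (1.59% of all genes were called higher and 2.01% lower), and the median was -0.04, with 34 lower and 16 higher (47.7% and 52.3% of all genes), beside 0.01 over all genes. The largest differences were FOXM1 (0.58 ± 0.28 SE), CENPA (0.30 ± 0.16), SPC24, MKI67 (-0.25 ± 0.49) and CENPE (-0.22 ± 0.15). At an unadjusted P under 0.05, 1 gene was higher (6.98% of all genes) and 2 were lower (6.51% of all). SPC24 was higher (46.9 and 40.5 TPM against 35.05 and 37.6 TPM, log2 fold change 0.26 ± 0.10 SE) and CCNB1 (358 and 362 TPM against 393 and 425 TPM, -0.18 ± 0.07) and KIF20A (-0.16 ± 0.06) were lower, and none of the 3 had an adjusted P under 0.31. Of the other lists, CENPM was called higher in line 86 (107 against 66.9 TPM, 0.67) and ANAPC2, a subunit of the anaphase-promoting complex, lower (43.2 against 65.6 TPM, -0.60).

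In line 87 the median was 0.04, with 32 genes higher and 18 lower (48.4% and 51.6% of all genes), beside -0.01 over all genes, and FOXM1 was the only 1 of the 50 called higher (2.08% of all genes), with none called lower (3.05% of all). FOXM1 (hg38, chr12:2857681-2877155, minus strand) was at 100.1 and 89.6 TPM in the controls, 75.2 and 74.4 TPM in line 79, 101 and 200 TPM in line 86 and 189 and 187 TPM in line 87. Both libraries of line 87 lay above the controls and so did 1 library of line 86, whereas its other library was level with the higher control. The log2 fold change in line 87 was 0.98 ± 0.28 SE (unadjusted P = 0.0118, adjusted P = 0.132), and without control replicate 4 it was 0.90 and no longer called (unadjusted P = 0.0552 by limma). In line 86 FOXM1 was called only without replicate 1 of that line (1.07). Coverage, the mean number of aligned bases per position, divided by aligned gigabases gave 35.9 and 35.3 in line 87, 14.8 and 36.7 in line 86, and 16.2 and 14.2 in the controls, so the step between the 2 libraries of line 86 was in that column too. RHNO1, which overlaps FOXM1 on the opposite strand, was at 104 and 34.3 TPM in line 87, 30.1 and 33.4 TPM in line 86 and 33.04 and 102 TPM in the controls, a different order of libraries. The counting is not stated to use strand, so reads from the 2 genes cannot be told apart where they overlap.

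CCNB2 was lower in line 87 as well, at 139 and 144 TPM against 178 and 182 TPM in the controls (-0.34 ± 0.06, adjusted P = 0.0332), and lower than in line 86 (-0.30 ± 0.06, adjusted P = 0.0334). At an unadjusted P under 0.05 with no demand on the fold, 6 genes were higher in line 87 (8.21% of all genes) and 3 lower (9.56% of all). The condensin genes SMC2 (81.0 and 93.8 TPM against 70.5 and 68.6 TPM, 0.32 ± 0.09) and NCAPG (77.6 and 80.8 TPM against 67.0 and 70.2 TPM, 0.20 ± 0.07) were among the 6, with adjusted P-values of 0.119 and 0.190. MKI67 was at 53.4 and 168 TPM in line 87, so its 2 libraries lay on either side of the controls (0.48 ± 0.49). BIRC5, which encodes survivin, was at 48.2 and 91.1 TPM in line 87 and at 82.8 and 49.3 TPM in line 79, beside 49.6 and 56.1 TPM in the controls. Its coverage divided by aligned gigabases, 10.2 and 12.8 in line 87 and 11.2 and 10.1 in line 79 beside 11.02 and 11.5 in the controls, did not show steps of that size. Of the 7 CDK inhibitor genes, CDKN1A, which encodes p21, was called higher in line 87 (28.6 against 17.8 TPM, 0.66, adjusted P = 0.0172).

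The test between the 3 lines themselves used the moderated F test of the same fit, which asks whether the 3 means differ by more than libraries of a line do. It gave an adjusted P under 0.05 for 13 of the 50 genes (16.0% of all genes). The smallest values were those of BUB1 (adjusted P = 0.00337), KIF11 (0.00615), CCNB2 (0.00994), BUB3 (0.0115), which encodes the partner of BUB1 at the kinetochore, and KIF23 (0.0126). BUB3 was at 304 and 273 TPM in line 79, 403 and 430 TPM in line 86 and 422 and 444 TPM in line 87, beside 396 and 350 TPM in the controls. In each of these 5 genes line 79 was lowest by the mean of its libraries. After median ratio scaling the number was 12 of 50 (15.5% of all genes), without FOXM1.

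Between pairs of lines, 4 genes were called higher in line 87 than in line 79 (5.64% of all genes) and none lower (3.06% of all): FOXM1 (log2 fold change 1.32 ± 0.28 SE, adjusted P = 0.0335), MKI67 (1.36 ± 0.49, adjusted P = 0.150), BUB1 and BUB3 (0.59 ± 0.09, adjusted P = 0.0102). In line 79 against line 86, 3 were called lower (6.30% of all genes) and none higher (3.50% of all), FOXM1 (-0.91 ± 0.28, adjusted P = 0.0894), KIF23 (-0.59 ± 0.08, adjusted P = 0.00751) and BUB1 (-0.66 ± 0.08, adjusted P = 0.00446). After median ratio scaling BUB3 (0.56) and KIF23 (-0.54) were short of 1.5-fold in these contrasts. The libraries of a line lay far apart in MKI67 of line 87, by 3.15-fold, and in FOXM1 of line 86, by 1.99-fold. Between lines 87 and 86 none was called (2.99% of all genes were called higher and 3.47% lower in line 87). PLK1, which was lower under the knockout label, was at 172 and 158 TPM in line 79, 187 and 181 TPM in line 86, 201 and 216 TPM in line 87 and 199 and 188 TPM in the controls. Line 87 lay above line 79 in PLK1 (0.34 ± 0.07, adjusted P = 0.0338), short of 1.5-fold. CCNB1, at 401 and 363 TPM in line 87 and 363 and 353 TPM in line 79, did not pass between these lines (0.09 ± 0.07).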

How the data were processed

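The authors processed the reads with fastp, Hisat2 (hg38) and Stringtie. Every gene table they deposited lists coverage, FPKM and TPM. Their methods name rRNA depletion, the labels polyA RNA. Counts were not used, and without them a TPM has no counting interval, so precision came from the spread between libraries. Aligned bases were worked out from the ratio of coverage to FPKM.

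Tests on log2(TPM + 1) used limma 3.58.1 (R 4.3.3, trend, genes of at least 1 TPM in 2 libraries, Benjamini-Hochberg adjustment over all genes tested). Fold changes on this scale understate those of low genes. Controls were matched to conditions by the library codes in the titles. Median ratio scaling, pseudocounts, FPKM, quantile normalization, filters, blocks and leaving out libraries were tried, and the fit was tested on simulated data. Python 3.11.15 and scipy 1.17.1 did the rest.

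The 50 genes, the lists and the motifs were chosen with earlier results of these data known. Named in each comparison were every called gene and the 5 largest differences, with the 5 smallest P of the F test, the 3 highest and 3 lowest levels, and MKI67, TOP2A, CDK1, CCNB1, PLK1 and FOXM1. Others were chosen after their values were seen. They included ANLN, CCNF, CDC20, KIF20A, KIF2C, KIF4A, AURKB, NUF2 in line 79, NCAPG, HMMR, the passenger complex, CCNA2, CDC25B, KIF22 and SPC24. One marker gene is not reported here.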

Additional observations from a re-analysis of the deposited data

Results flagged for a closer look

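Among the 6 libraries labelled U11 overexpression, 2 of the 50 genes had a highest library apart from the rest by Dixon's test. By chance that test marks about 5% of groups. MKI67 was at 168 TPM in replicate 3 of line 87 and at 35.3 to 57.4 TPM in the other 5, a gap of 0.834 of the range, and the same step was in the coverage column (65.5 per gigabase against 12.9 to 20.4). CCNB1 was at 401 TPM in replicate 1 of line 87 and at 353 to 363 TPM in the other 5, a gap of 0.793 of the range, but its coverage per gigabase was 117 in that library, 112 in replicate 3 of line 87 and 98.6 to 110.2 in the other 4.

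The 13 genes that differed between the lines by the moderated F test of limma had adjusted P-values of 0.00337 (BUB1), 0.00615 (KIF11), 0.00994 (CCNB2), 0.0115 (BUB3), 0.0126 (KIF23), 0.0179 (KIF20B), 0.0188 (AURKB), 0.0230 (CDK1), 0.0339 (SMC2), 0.0379 (NCAPG), 0.0404 (CDCA8), 0.0469 (NUF2) and 0.0481 (FOXM1).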

How the results depend on the processing

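For single genes, 741 of the values under alternatives kept their direction and their side of the threshold, 31 lost and 11 gained a call and 34 changed sign. The knockout label's 4 genes called higher became 2 with FPKM, 2 with median ratio scaling, 1 with coverage per gigabase (chosen after seeing the data) and 0 at an adjusted P, where 5.05%, 5.50%, 3.29% and 4.78% of all genes were called higher, and the 1 called lower stayed 1 in these 4. With coverage TTK alone stayed called higher. NUF2 had 4.48 and 8.65 per gigabase in the controls and 9.69 and 9.83 under the knockout label (log2 fold change 0.56). With no filter on low genes, the median of the 50 less that of all genes was 0.1248 in place of 0.0357. With all 4 controls in each comparison, which mixes the 2 kinds of library, the knockout label had 0 called higher (2.19% of all genes). Its median less that of all genes was -0.0965, with TOP2A at -0.17, CDK1 at -0.48 and FOXM1 at -0.56. The overexpression label then had 7 called higher (17.7% of all genes), a median of 0.1249, and MKI67 at 0.075, CDK1 at 0.54, CCNB1 at 0.42, PLK1 at 0.74, CCNB2 at 0.34, KIF20B at 0.43, PRC1 at 0.47 and AURKA at 0.41. The cause was not tested. In line 79 the 2 genes called lower became 1 with FPKM, median ratio scaling or quantile normalization (3.38%, 4.76% and 4.41% of all genes), and in line 87 the 1 called higher became 0 at an adjusted P (1.10%). Between the lines, 23 genes at an unadjusted P (30.5% of all genes) became 13 at an adjusted P (16.0%). TOP2A in line 86 went from 0.01 to -0.0121 with FPKM, -0.0026 with median ratio scaling, -0.0177 with quantile normalization and -0.0118 with coverage, and CDK1 in line 87 from -0.01 to 0.0016 with median ratio scaling and 0.0043 with coverage.

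Leaving out 1 library at a time gave 0 to 11 genes called higher and 0 to 3 called lower under the knockout label (5.79% to 14.7% and 3.12% to 4.26% of all genes), with MKI67 from -1.88 to 0.0023, CDK1 from -0.34 to 0.81 and CENPE from -0.0042 to 2.12. In the overexpression comparison MKI67 ran from -0.53 to 0.10 and TOP2A from -0.0062 to 0.032. In line 79 the median less that of all genes ran from -0.1476 to -0.0878 and TOP2A from -0.049 to 0.093. KIF20B fell short of 1.5-fold without control replicate 4 or without replicate 1 of line 79 (-0.57 in both). MKI67 (-0.88) was called lower there without either library of line 87. In line 86 that median ran from -0.0646 to 0.001, CDK1 from -0.13 to 0.10, MKI67 from -0.56 to 0.060 and TOP2A from -0.041 to 0.056. FOXM1 was called higher there only without replicate 1 of line 86 (1.07). In line 87 CDK1 ran from -0.057 to 0.033, MKI67 from -0.33 to 1.30, TOP2A from -0.063 to 0.081 and BIRC5 from -0.13 to 0.78. FOXM1 lost its call there without control replicate 4 (0.90). Without replicate 1 of line 87, MKI67 (1.30) and BIRC5 (0.78) were called higher and AURKA lower. The U11 ratio ran from 1.40 to 1.66 under the knockout label and from 33.1 to 617 in the overexpression comparison, the extremes without control replicate 3 and without control replicate 4.

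The labels number the libraries 1 and 2 in both groups of the knockout comparison, and in the overexpression comparison, where lines are numbered 1 and 3 and controls 3 and 4, the library code in the titles was used as the block. Libraries of 1 number or code deviated together only weakly (r = 0.024 in the knockout comparison and 0.070 to 0.150 between groups of the overexpression comparison). The main fits used no block, and no test of pairing was run. With the replicate block, 6 genes were called higher and 1 lower under the knockout label, where 8.67% and 3.22% of all genes were called. The block left 2 lower in line 79 (5.51% of all genes) and 1 higher in line 87 (2.1%). Between the lines 26 differed at an unadjusted P (35.2% of all genes), beside 23 without the block (30.5%).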

Other observations

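Among the cell type markers, the endothelial cadherin CDH5 moved most. The controls of the knockout comparison held 4.85 and 4.75 TPM of it and the knockout-labelled libraries 0.032 and 0.029 TPM (log2 fold change on log2(TPM + 1) -2.49, limma, adjusted P = 0.00470). In the overexpression comparison line 79 held 34.1 and 32.2 TPM, the controls 3.43 and 3.08 TPM and the other 2 lines 4.17 to 5.28 TPM (3.01 in line 79, adjusted P = 0.000138). Other leucocyte and endothelial markers were low in every library, with PECAM1 at or below 0.297 TPM, PTPRC at or below 0.496 TPM, CD3E at or below 0.915 TPM and CD68 between 1.06 and 6.31 TPM. CD68 was higher in line 87, at 6.27 and 6.31 TPM against 3.22 and 2.72 TPM (0.88, limma, unadjusted P = 0.00288, adjusted P = 0.0645).

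Of the mesenchymal markers, FN1, which encodes fibronectin, had 932 and 1014 TPM in the controls and 3572 and 2727 TPM under the knockout label (1.68, adjusted P = 0.0124), and VIM at 1304 and 1259 TPM against 2254 and 2096 TPM (0.76). In line 87 FN1 was lower, at 1074 and 1069 TPM against 1997 and 1901 TPM (-0.86, adjusted P = 0.000883), whereas VIM was at 2553 and 2823 TPM against 2470 and 2014 TPM (0.27, adjusted P = 0.315). CDH2, the third of these markers, did not pass under the knockout label (-0.01) or in line 87 (-0.05). The keratin gene KRT19 was lower under the knockout label (92.8 and 90.3 TPM against 158 and 151 TPM, -0.74, adjusted P = 0.0194). KRT18 had 292 and 270 TPM there against 399.9 and 373 TPM (-0.46), short of 1.5-fold, and passed as lower after median ratio scaling (-0.59, adjusted P = 0.0470). KRT7 had 1308 and 1085 TPM against 1247 and 1156 TPM (-0.01), KRT8 had 399 and 372 TPM against 372 and 367 TPM (0.06), and neither passed. GATA3 was lower in line 87 (6.78 and 6.31 TPM against 17.4 and 13.6 TPM, -1.12, limma, adjusted P = 0.0158) and higher under the knockout label (5.61 and 4.67 TPM against 2.38 and 2.93 TPM, 0.75, unadjusted P = 0.00490, adjusted P = 0.0553). The part of these differences in those of the mitotic genes was not tested.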
